A study of Mus musculus with 15 samples.

Results

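Transcripts of 9 genes of the NRF2 antioxidant pathway were followed in mouse liver: the transcription factor gene Nfe2l2, its repressor gene Keap1, and the target genes Gclc, Gclm, Slc7a11, Nqo1, Hmox1, Osgin1 and G6pdx. They were chosen by name, though with earlier results of these data known, and are 9 of 35540 gene symbols in the deposited table. All 9 passed the filter on low counts and are among the 13916 genes tested. Bulk liver RNA was sequenced in 15 libraries after 8 weeks of high-fat diet. There were 5 libraries of wild-type mice (WT), 5 of mice with the C247S change in TXNIP (C247S KI) and 5 of Txnip knockout mice (KO), and every group had received the diet, so no group shows liver on normal food. TXNIP is the thioredoxin-interacting protein and the C247S change exchanges the cysteine through which it does so. Going by the title, the question of the series is whether the liver needs the link between these proteins to become insulin resistant. The labels give no age or sex, and do not say how or in which cells the knockout was made. Each title carries a number of its own, with the KO numbers in a range apart from the common range of WT and C247S KI, but what these numbers stand for is not stated. The labels do not state that every library is a separate animal, and the p-values then cover only the spread among these 15.

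NRF2, the protein made from Nfe2l2, is held in the cytoplasm by KEAP1, the adaptor that hands it to a CUL3 ubiquitin ligase for breakdown. Oxidants and electrophiles modify cysteines of KEAP1, NRF2 then builds up in the nucleus, pairs with a small MAF protein and binds antioxidant response elements. Its targets supply glutathione and NADPH, reduce quinones and break down haem. In liver this pathway is best known for defence against drugs and toxins. Because NRF2 is controlled mainly through its protein, the transcript of Nfe2l2 is an incomplete measure of its activity.

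The promoter windows below are shown because they let the letters of the response element be looked for beside the target genes whose levels follow. The core of the element was searched as TGACNNNGC and as TGAGNNNGC, on both strands (GCNNNGTCA and GCNNNCTCA on the other strand), and a place on 1 strand can match only 1 of the 2 forms. RefSeq windows in GRCm38.p6 (250 bases before to 50 after the start site) were held for 7 of the 9 genes, without Hmox1 and Gclc. The 250 bases before the start are printed. Capitals mark a match and all other bases are in lower case, 5′ to 3′ along the gene.
Nqo1, chr8:107403206-107403455, minus strand: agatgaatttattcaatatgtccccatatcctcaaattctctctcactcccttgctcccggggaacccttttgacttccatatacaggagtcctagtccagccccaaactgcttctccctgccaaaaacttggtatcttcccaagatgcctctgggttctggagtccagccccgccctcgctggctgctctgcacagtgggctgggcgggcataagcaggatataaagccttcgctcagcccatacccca
Gclm, chr3:122245307-122245556, plus strand: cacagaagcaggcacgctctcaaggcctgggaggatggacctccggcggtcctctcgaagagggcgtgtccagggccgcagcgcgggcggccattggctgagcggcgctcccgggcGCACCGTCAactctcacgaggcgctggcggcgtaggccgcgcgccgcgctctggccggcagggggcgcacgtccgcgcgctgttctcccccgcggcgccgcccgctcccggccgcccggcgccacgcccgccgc
Osgin1, chr8:119436897-119437146, plus strand: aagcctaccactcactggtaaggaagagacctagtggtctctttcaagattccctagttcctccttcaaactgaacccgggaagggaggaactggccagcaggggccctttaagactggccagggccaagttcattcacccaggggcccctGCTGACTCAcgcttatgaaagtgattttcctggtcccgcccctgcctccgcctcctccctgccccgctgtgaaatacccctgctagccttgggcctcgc
G6pdx, chrX:74428881-74429130, minus strand: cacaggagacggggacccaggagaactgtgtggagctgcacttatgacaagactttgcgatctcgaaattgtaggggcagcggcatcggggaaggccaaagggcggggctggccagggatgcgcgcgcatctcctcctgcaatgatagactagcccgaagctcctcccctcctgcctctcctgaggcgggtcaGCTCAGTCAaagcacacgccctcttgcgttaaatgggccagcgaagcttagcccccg
Gclm has GCACCGTCA at 134 to 126 bases before the start, G6pdx has GCTCAGTCA at 57 to 49 before it, and Osgin1 has GCTGACTCA at 99 to 91 before it, each on the strand opposite to the gene. Nfe2l2 itself has TGACTCCGC at 240 to 232 before its start, and Slc7a11 has GCTTTCTCA at 97 to 89 before it. Neither form was found in the windows of Nqo1 and Keap1. In all, 5 of the 7 windows held a match, while among 32851 promoters of the same length 12.4% held the first form, 17.6% the second and 27.8% either. A match is a description of these letters, and no match says only that they are not in this window.

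The libraries held 18047577 to 23379940 estimated counts. Of the 7 hepatocyte markers 0 were absent from any group, and their summed level was 57850 to 82200 counts-per-million (CPM) in KO, below the 87970 to 108200 in WT, and 74270 to 120700 in C247S KI. Albumin (Alb) was the 1 of them that fell in KO against WT, while 4 of the 7 had a positive log2 fold change and 0 rose. Alb made up most of the sum, with means of 38230 CPM in KO and 66440 in WT, so the sum mainly follows Alb. The part of Alb in the results below was not tested. Txnip was lower in KO, at 70.9 to 124 CPM against 180 to 319.9 in WT (log2 fold change -1.17, SE 0.24, edgeR adjusted p = 0.00887), and it was not absent. In C247S KI it lay at 99.9 to 280 CPM. A clock index, the mean log2 CPM of Dbp, Ciart, Per2, Per3 and Tef less that of Arntl, Npas2, Clock and Nfil3, was 3.68 to 4.31 in KO, above the WT range of 2.32 to 3.43 and the C247S KI range of 1.68 to 3.03. In bulk liver, fewer cells of a type and less RNA per cell cannot be told apart.

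Compared per length of transcript, the genes of glutathione synthesis were the highest of the 9 and the cystine transporter gene the lowest. Levels are given here as transcripts-per-million (TPM), from the estimated counts of each transcript divided by its annotated length and summed per gene. Short forms therefore weigh more than long ones, which matters for Gclm, with forms of 5589 and 1088 bases. In CPM, without division by length, the WT mean of Gclm (141) was below that of Gclc (157). In WT the means were 113 ± 14.9 TPM for Gclm, 73.95 ± 17.1 for Gclc, 37.4 ± 18.2 for Osgin1, 30.8 ± 7.59 for Nfe2l2, 28.6 ± 5.36 for Keap1, 20.5 ± 4.91 for Hmox1, 5.82 ± 1.58 for G6pdx, 5.56 ± 0.937 for Nqo1 and 2.07 ± 0.752 for Slc7a11 (SD, n = 5). Each gene overlapped the next in this order except at 2 steps. The lowest WT library for Hmox1 (14.1 TPM) was above the highest for G6pdx (8.40 TPM), and the lowest for Nqo1 (4.53 TPM) above the highest for Slc7a11 (2.73 TPM). In KO a gap also opened above Gclc, whose highest library (59.4 TPM) was below the lowest of Gclm (86.8 TPM), and above Hmox1, whose highest (14.1 TPM) was below the lowest of Nfe2l2 (18.1 TPM). The gap between Nqo1 and Slc7a11 was not present there, since the lowest KO library of Nqo1 (1.75 TPM) was below the highest of Slc7a11 (2.19 TPM). In CPM the KO gap above Gclc was absent, as its highest library (128.2 CPM) was above the lowest of Gclm (127.6 CPM).

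**Figure D1:**
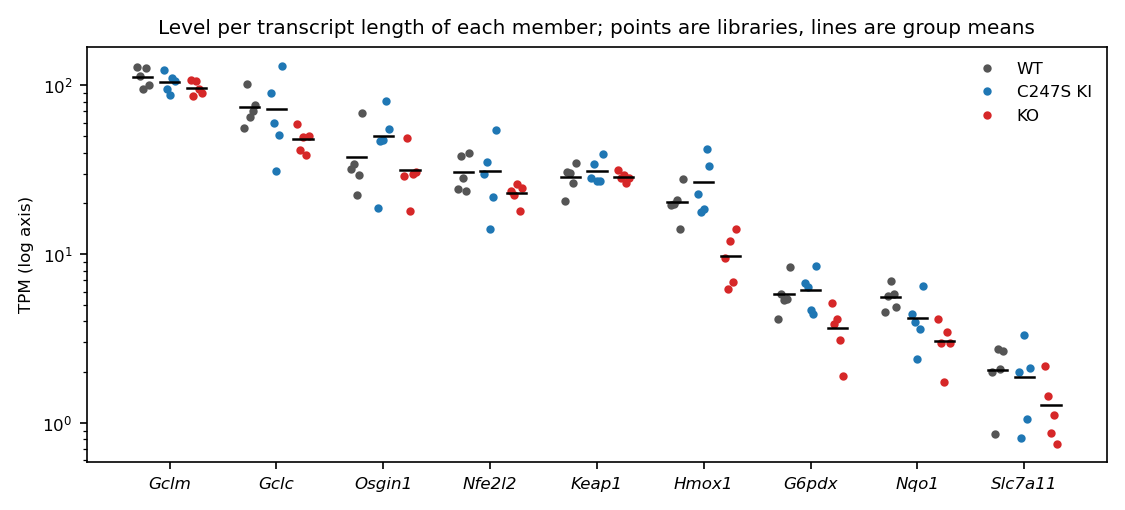
Level of each gene in TPM on a log axis, in the order of the WT means, with 1 point per library and a line at each group mean. Gclm and Gclc lie highest and Slc7a11 lowest in all 3 groups, judged by the group means, and the KO points of Hmox1 lie apart from those of Nfe2l2 and Keap1.

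Most of the 9 genes were read through 1 main coding transcript. The coding transcript carried all counts of Nqo1, 98.7% of Hmox1, 99.8% of Gclc, 96.0% of Nfe2l2, 92.0% of Osgin1 and 90.2% of G6pdx. Gclm was divided between a long form of 5589 bases (72.3%) and a short one of 1088 bases (20.7%). For Keap1 the leading form, ENSMUST00000194542, took 69.8 ± 4.05% of the counts in KO, 62.3 ± 5.24% in WT and 63.1 ± 4.63% in C247S KI (SD, n = 5 each), with overlapping ranges. Slc7a11 differed from the rest. Of its 303 estimated counts over all 15 libraries, 144 belonged to a non-coding transcript of 481 bases, 85 to a retained intron and 42 to the full coding transcript of 9223 bases. Most of what is counted for this gene is thus not its coding message. These shares are estimates without a test.

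In KO against WT, 2 of the 9 genes fell, Hmox1 and Nqo1, and 0 rose (edgeR quasi-likelihood test, Benjamini-Hochberg adjusted p below 0.05 over all genes). Among all 13916 genes tested, 4.19% fell and 2.56% rose by that rule. At an unadjusted p below 0.05, 4 of the 9 were lower and 0 higher, beside 12.8% of all genes lower and 23.3% in either direction. The median log2 fold change of the 9 was -0.42 and that of all genes -0.01, and 8 of the 9 were negative beside 51.3% of all genes.

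Hmox1 encodes haem oxygenase 1, the inducible enzyme that breaks haem into biliverdin, iron and carbon monoxide. The gene (ENSMUSG00000005413) lies on chromosome 8 from 75093621 to 75100589 in GRCm38, on the plus strand. Its WT libraries 1 to 5 were at 21.7, 17.9, 20.9, 14.7 and 24.4 CPM. The KO libraries were at 9.37, 7.21, 12.0, 8.29 and 14.8 CPM. All 5 KO libraries were below the WT median, and the groups overlapped only through KO 5 and WT 4. The mean fell from 19.9 ± 3.73 to 10.3 ± 3.08 CPM (SD, n = 5 each), a log2 fold change of -0.94 (SE 0.24, edgeR adjusted p = 0.0274). The call was lost without any 1 of WT 1, WT 3, WT 5, KO 1, KO 2 or KO 4 (edgeR adjusted p = 0.0523 to 0.0826), with the clock index as a covariate (-0.53, adjusted p = 0.401) and with the most abundant transcript only (-0.92, adjusted p = 0.0586). Kupffer cells, the liver macrophages, also make Hmox1. Of the 13 macrophage markers 2 fell and 0 rose in KO against WT (edgeR; all 13 present in each group), and 12 of the 13 were negative. Their summed level was 199 to 439.8 CPM in KO and 310.5 to 547 in WT. Of the 7 stellate cell markers 1 fell (Col3a1) and all 7 were negative, with a sum of 142 to 368 CPM in KO, below the 392 to 464 in WT. Of the 7 endothelial markers 2 fell (Pecam1 and Lyve1), with overlapping sums of 122 to 198 CPM in KO and 109 to 251 in WT. The part of these cell types in the Hmox1 and Nqo1 results was not tested.

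Nqo1 encodes NAD(P)H quinone oxidoreductase, which reduces quinones without releasing radicals and is often read as a marker of NRF2 activity. The gene (ENSMUSG00000003849) lies on the same chromosome from 107388225 to 107403206, on the minus strand. The WT libraries were at 5.02, 5.07, 6.95, 6.004 and 4.32 CPM, and the KO libraries at 4.03, 3.42, 1.74, 4.15 and 3.10 CPM. The highest KO library lay below the lowest WT library, so the groups did not overlap. Nqo1 and Gclc were the 2 of the 9 genes with such a gap, which 5.09% of all genes had in the lower direction. Nqo1 fell from 5.47 ± 1.02 to 3.29 ± 0.965 CPM (SD, n = 5 each), a log2 fold change of -0.74 (SE 0.21, edgeR adjusted p = 0.0438). It is a low gene in these data, with 85 to 144 counts per WT library and 38 to 80 per KO library. The call was lost without any 1 of WT 2, WT 3, WT 4, C247S KI 1, C247S KI 2, KO 2, KO 3 or KO 5 (edgeR adjusted p = 0.0512 to 0.097). It was also lost with the clock index (-0.56, adjusted p = 0.329), with only the 2 groups in the fit (0.0533), with no count filter (0.0659) and with the most abundant transcript only (0.0782). Nqo1 has 1 transcript in the table, so the last setting changed the counts of other genes and not its own (log2 fold change -0.735).

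**Figure D2:**
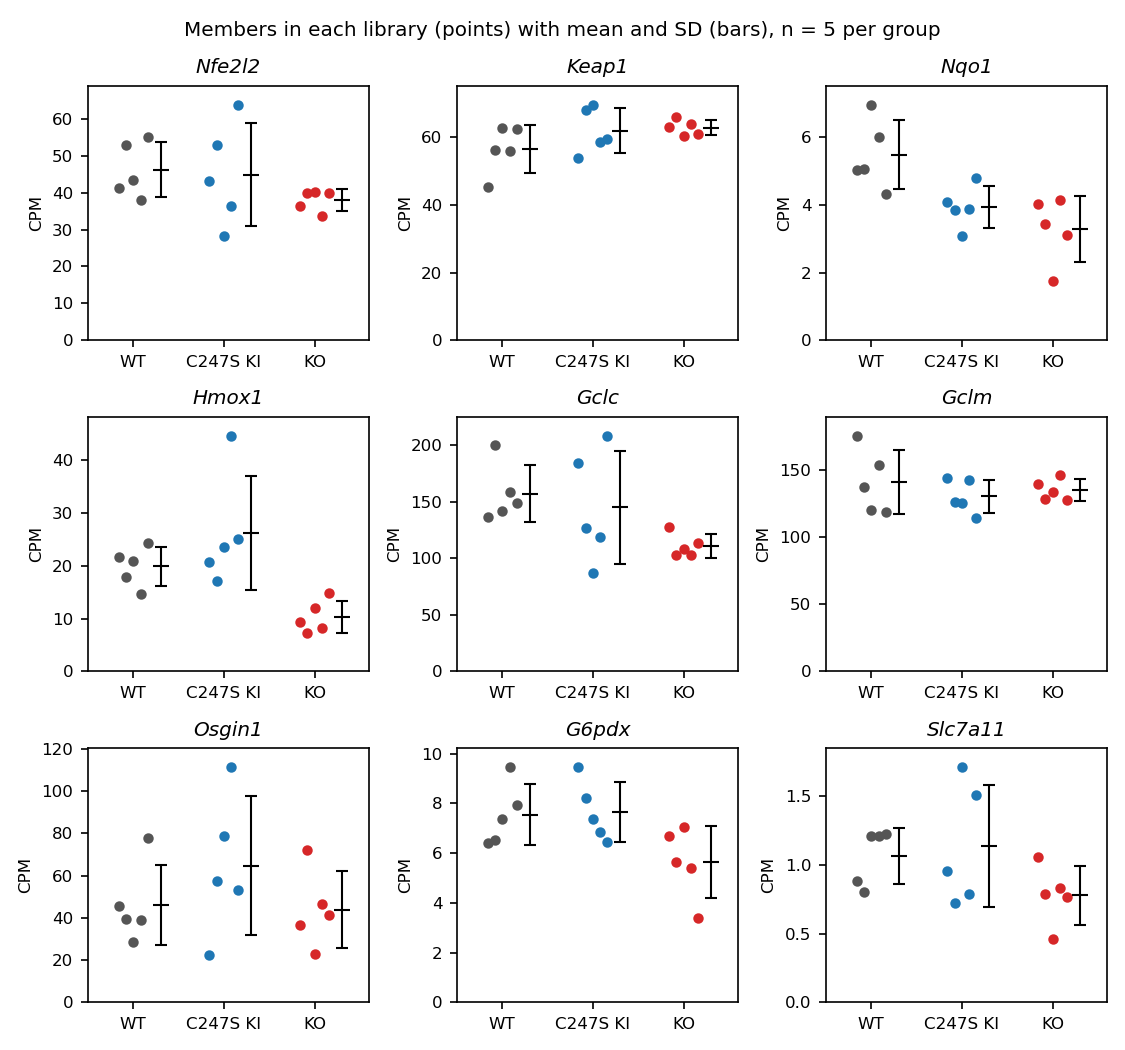
CPM of the 9 genes in each library by group, with the mean and SD to the right of each group (n = 5). The KO points of Nqo1 and Gclc lie below all WT points, those of Hmox1 overlap WT through KO 5 at 14.8 CPM, and the KO points of Gclm lie within the WT range.

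Glutamate-cysteine ligase, the rate-limiting enzyme of glutathione synthesis, has 2 subunits, and neither gene passed the threshold. Gclc, the catalytic subunit (ENSMUSG00000032350, chromosome 9 from 77754535 to 77794485), was at 137, 200.4, 142, 158 and 149 CPM in WT and at 128, 103, 108, 103 and 113 CPM in KO. These groups did not overlap, yet its log2 fold change of -0.50 (95% interval -0.90 to -0.10) did not pass over all genes (edgeR adjusted p = 0.116). It passed with only the 2 groups in the fit (adjusted p = 0.0249) and with WT 1, C247S KI 3 and C247S KI 5 left out (adjusted p = 0.0247). For Gclc these were the lowest WT library and the lowest and highest C247S KI libraries, so leaving them out also reduced its spread. Gclm, the modifier subunit that raises the affinity of the enzyme for glutamate, lies on chromosome 3, 25.7 Mb from Txnip, and was at 119 to 176 CPM in WT and 128 to 147 in KO. Its log2 fold change was -0.06 with a 95% interval of -0.31 to 0.18, so a change of Gclm as large as that of Hmox1 lay outside its interval. The subunits were not tested against each other.

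The regulator and its repressor did not pass the threshold. Nfe2l2 (ENSMUSG00000015839, chromosome 2 from 75675513 to 75704641) was at 38.0 to 55.05 CPM in WT and 33.5 to 40.2 in KO, with all 5 KO libraries below the WT median (log2 fold change -0.28, 95% interval -0.65 to 0.08, edgeR adjusted p = 0.347). Keap1 (ENSMUSG00000003308, chromosome 9 from 21229730 to 21239361) was at 45.3 to 62.5 CPM in WT and 60.3 to 65.7 in KO, with all 5 KO libraries above the WT median (0.15, 95% interval -0.07 to 0.37, adjusted p = 0.404). Both KO groups were tight, with coefficients of variation of 7.74% for Nfe2l2 and 3.595% for Keap1, against 16.2% and 12.4% in WT.

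G6pdx, which encodes glucose-6-phosphate dehydrogenase, the entry enzyme of the pentose phosphate route to NADPH, had a mean of 5.64 ± 1.43 CPM in KO and 7.55 ± 1.24 in WT (log2 fold change -0.42, 95% interval -0.80 to -0.04, edgeR adjusted p = 0.171). Slc7a11, the subunit of the cystine and glutamate exchanger that brings in cystine, lies 46.1 Mb from Txnip and was at 0.459 to 1.06 CPM in KO and 0.798 to 1.22 in WT, or 10 to 21 and 17 to 25 counts (-0.45, 95% interval -1.08 to 0.19). For both genes all 5 KO libraries were below the WT median. Osgin1, an oxidative stress induced growth inhibitor, varied most within groups, from 22.9 to 72.2 CPM in KO and from 28.7 to 77.9 in WT. Its interval, -0.82 to 0.68 on the log2 scale, holds falls and rises of more than 1.5-fold.

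**Figure D3:**
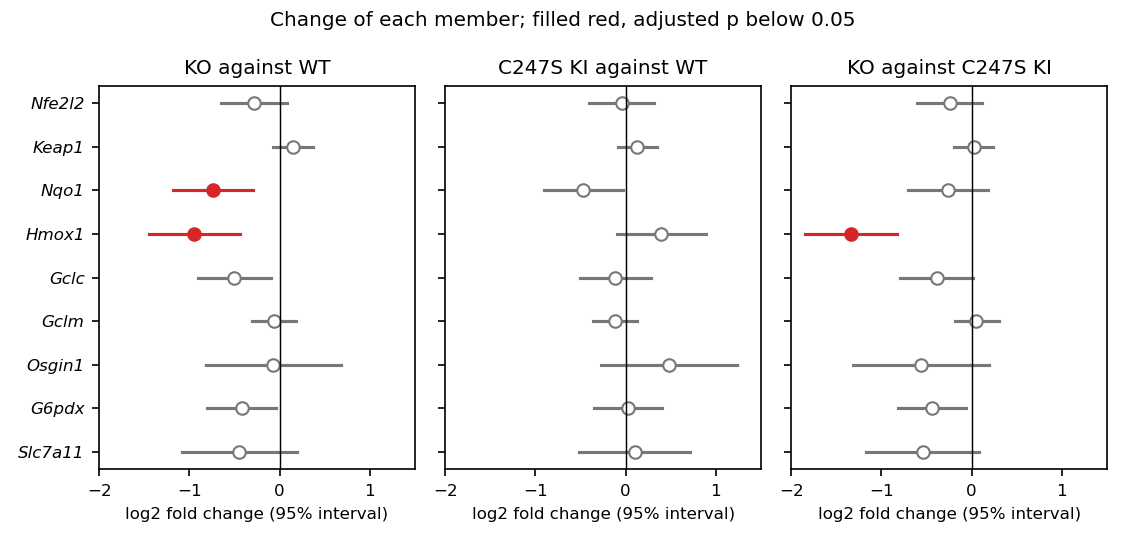
Log2 fold change of the 9 genes with its 95% interval in the 3 comparisons, filled red where the adjusted p was below 0.05. Hmox1 and Nqo1 are filled in KO against WT, none in C247S KI against WT, and Hmox1 in KO against C247S KI.

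In C247S KI against WT, 0 of the 9 genes passed with edgeR, DESeq2 or limma-voom, and 1, Nqo1, had an unadjusted p below 0.05 and was lower. Of all genes tested 0.0862% passed in either direction, and 4.19% were lower at an unadjusted p below 0.05 (9.85% in either direction). Nqo1 was at 4.09, 3.85, 3.08, 3.88 and 4.81 CPM in C247S KI. All 5 lay below the WT median, but C247S KI 5 lay above WT 5, so the groups overlapped (log2 fold change -0.47, SE 0.21, 95% interval -0.90 to -0.03, edgeR adjusted p = 0.484). Hmox1 was at 20.7, 17.1, 23.6, 44.6 and 25.03 CPM, a log2 fold change of 0.39 with a 95% interval of -0.10 to 0.89 (adjusted p = 0.590). This difference rested largely on C247S KI 4, the highest of the 15 libraries for Hmox1, and was 0.12 without it. The summed macrophage markers were at 193 to 338 CPM in C247S KI, with 0 of the 13 past the threshold and all 13 negative, and their part in this value was not tested.

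Gclc and Nfe2l2 were widely spread among the C247S KI libraries. Gclc ranged from 87.5 CPM in C247S KI 3 to 208.5 in C247S KI 5, and Nfe2l2 from 28.3 to 63.7 CPM in the same 2 libraries. The coefficients of variation were 34.4% and 30.95%, and the log2 fold changes -0.11 (95% interval -0.51 to 0.28) and -0.04 (-0.41 to 0.32). Osgin1 was more variable still, at 22.5 to 111 CPM (0.48, 95% interval -0.27 to 1.23), with its highest value in C247S KI 4. The intervals of Keap1 (-0.09 to 0.35), Gclm (-0.36 to 0.13), G6pdx (-0.35 to 0.40) and Slc7a11 (-0.52 to 0.71) all included 0. For all 9 genes the C247S KI libraries overlapped those of WT, as they did for all but 1.32% of the genes tested.

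In KO against C247S KI, 1 of the 9 genes passed, Hmox1, which was lower in KO. The share of all genes that fell in this comparison was 5.85%, and 4.41% rose. At an unadjusted p below 0.05, 2 of the 9 were lower, Hmox1 and G6pdx, beside 14.6% of all genes, and 7 of the 9 had a negative log2 fold change, beside 53.3%. Hmox1 did not overlap between the groups, with KO at most 14.8 and C247S KI at least 17.1 CPM (log2 fold change -1.34, SE 0.24, 95% interval -1.85 to -0.83, edgeR adjusted p = 0.00241). A gap in the lower direction was found in 4.94% of all genes. The call was kept without each single library, at -1.05 (adjusted p = 0.00440) without C247S KI 4, and was lost with the clock index (-0.76, adjusted p = 0.3). The comparisons with WT share the same 5 WT libraries, so the direct comparison is the test of a difference between the mutants. Of the macrophage markers 10 of 13 were positive here and 1 fell. Of the 5 tested cholangiocyte markers 2 fell (Spp1 and Sox9), and the sum of all 6 was 25.6 to 38.1 CPM in KO and 46.6 to 121 in C247S KI. Lyve1 was the 1 of 7 endothelial markers that fell, and 0 of 7 stellate markers passed. Of the 7 hepatocyte markers 1 fell, Alb (-0.80, edgeR adjusted p = 0.0218), and 1 rose, Cyp2e1 (0.77, edgeR adjusted p = 0.0141). The part of these cell types in the Hmox1 result was not tested.

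Nqo1 did not pass between the 2 mutant groups (log2 fold change -0.27, SE 0.21, 95% interval -0.71 to 0.18, edgeR adjusted p = 0.434). G6pdx was lower in all 5 KO libraries than the C247S KI median (-0.44, 95% interval -0.82 to -0.06, adjusted p = 0.126). Gclc was at -0.39 (adjusted p = 0.196), and passed without C247S KI 3, its lowest C247S KI library (-0.53, adjusted p = 0.0379). Slc7a11 (-0.54), Osgin1 (-0.56) and Nfe2l2 (-0.24) had intervals that included 0, and so did Keap1 (0.02, -0.20 to 0.24) and Gclm (0.05, -0.19 to 0.30).

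**Figure D4:**
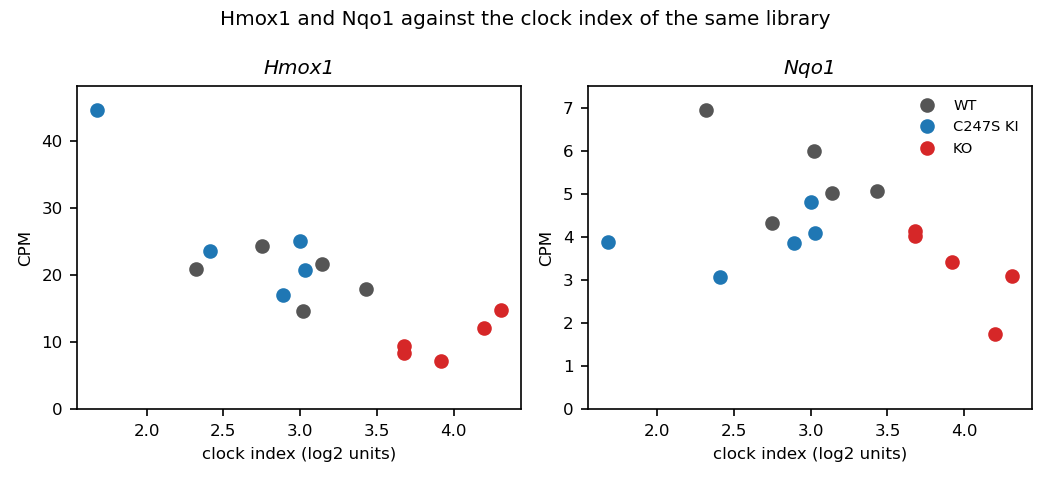
CPM of Hmox1 (left) and Nqo1 (right) against the clock index of the same library, coloured by group. All 5 KO libraries lie at an index of 3.68 or more, to the right of every WT and C247S KI library, and C247S KI 4, at 1.68, holds the highest Hmox1 value, 44.6 CPM.

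The KO genotype and a high clock index came together in every library, so their effects on Hmox1 and Nqo1 cannot be told apart here.

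A wider set of 110 genes of the NRF2 pathway and of related responses, in 8 lists, placed the 9 genes among their neighbours, and 108 of these were tested. The set includes 12 genes of the ATF4 stress response and the plasma protein genes Hpx and Hp. Its pooled counts are therefore not counts of NRF2 targets alone. In KO against WT 12 fell and 0 rose (edgeR; 29 lower and 7 higher at an unadjusted p below 0.05; 18 lower and 2 higher with DESeq2, 9 lower and 0 higher with limma-voom), with a median log2 fold change of -0.09. There 67 of the 108 were negative, beside 51.3% of all genes. Of all genes tested, 4.19% fell and 2.56% rose in KO against WT with edgeR, and 12.8% were lower at an unadjusted p below 0.05. DESeq2 called 10.5% of all genes and limma-voom 6.11%, in either direction. In C247S KI against WT 0 passed with any of the 3 tools (17 lower and 3 higher unadjusted), with a median of -0.14 and 81 of 108 negative, beside 49.6% of all genes. Of all genes 0.0862% passed in that comparison with edgeR, and 4.19% were lower at an unadjusted p below 0.05. In KO against C247S KI 11 fell and 9 rose, with a median of -0.01, while 5.85% of all genes fell and 4.41% rose. Of the 108, 56 were negative, beside 53.3% of all genes. At an unadjusted p below 0.05, 18 were lower and 17 higher, with 14.6% of all genes lower. DESeq2 called 11 lower and 11 higher, and limma-voom 7 lower and 9 higher. These shares of all genes also stand beside the counts of each list below.

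Among the 21 genes of the KEAP1 ligase and of NRF2 control, 1 fell and 0 rose in KO against WT. It was Maff, a small MAF protein that pairs with NRF2, at 9.02 to 12.7 CPM in KO and 19.4 to 27.7 in WT (log2 fold change -1.02, SE 0.22, edgeR adjusted p = 0.0118). These groups did not overlap, and in C247S KI Maff spanned 8.67 to 28.0 CPM. Between the 2 mutants Gsk3b, a kinase that marks NRF2 for breakdown, was lower in KO (-0.45, adjusted p = 0.0296) and Park7, a redox-sensitive protein that stabilises NRF2, higher (0.43, adjusted p = 0.0361). Both of those calls were lost without 8 single libraries each (adjusted p up to 0.102). The means of Park7 were 196 CPM in KO, 182 in WT and 145 in C247S KI, with a log2 fold change of 0.10 in KO against WT.

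Beside G6pdx, other enzymes that supply NADPH were listed. Of 10 such genes 2 fell in KO against WT, Me1, the cytosolic malic enzyme (57.1 ± 13.8 against 168 ± 61.2 CPM, SD, n = 5 each; log2 fold change -1.56, edgeR adjusted p = 0.0196), and Pgd, the dehydrogenase that follows G6pdx (29.1 ± 1.57 against 43.55 ± 8.79 CPM; -0.58, adjusted p = 0.0331). Against C247S KI both fell as well, by 1.71 and 0.60 on the log2 scale, while Pgls, the lactonase between G6pdx and Pgd, rose by 0.48 (adjusted p = 0.0316). Me1 lost its call against WT without WT 2 or KO 2 (adjusted p up to 0.0523), and Pgd lost its without 9 single libraries (up to 0.0838).

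In the longest list, conjugation, detoxification and export, 5 genes of 26 fell and 0 rose in KO against WT (10 lower and 1 higher unadjusted). Gstm3, a mu-class glutathione S-transferase, was at 5.13 to 11.6 CPM in KO and 14.3 to 46.8 in WT (log2 fold change -1.82, SE 0.38, edgeR adjusted p = 0.0103), and Gstm2 of the same class fell by 0.75 (adjusted p = 0.0296). The remaining pair, named after their values were seen, were Ugdh, which makes the UDP-glucuronate used in conjugation, and Aldh1a1, a retinaldehyde dehydrogenase, each at -0.63 (adjusted p = 0.0383 and 0.0424). Gsta1, an alpha-class member, fell to at most 0.674 CPM from 1.14 to 14.1, so near 0 that the size of its fall depends on the prior count. These families hold similar sequences, and their estimated counts are uncertain for that reason. Against C247S KI 3 fell, Gsta1, Ugdh (-0.61, adjusted p = 0.0339) and Gstm3, and 2 rose, Akr7a5, an aldehyde reductase (0.66, adjusted p = 0.0111), and Gstp1, a pi-class transferase named after its values were seen (1.04, adjusted p = 0.0467). Set against WT, the knock-in libraries had negative values for 24 of these 26, with a median of -0.31, and 0 passed (7 lower and 0 higher unadjusted; 0 with DESeq2 or limma-voom).

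The metallothioneins Mt1 and Mt2, small proteins that bind zinc and copper and scavenge radicals, were the 2 of 8 superoxide, peroxide and metal defence genes that fell in KO. Mt2 was at 51.1 to 196 CPM in KO, 353 to 1154 in C247S KI and 192 to 730.2 in WT (log2 fold change -2.36, SE 0.44, edgeR adjusted p = 0.00484 against WT; -2.89, adjusted p = 0.000925 against C247S KI). Mt1 changed by -2.03 (adjusted p = 0.00855) and -2.59 (adjusted p = 0.00127). All 4 calls were kept without each single library, and with the clock index the values against WT were -1.24 for Mt2 (adjusted p = 0.222) and -0.90 for Mt1 (adjusted p = 0.359).

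In the thioredoxin arm of 8 genes Srxn1, the sulfiredoxin that repairs peroxiredoxins, fell in KO against WT (29.97 ± 3.32 against 43.9 ± 9.27 CPM, SD, n = 5 each; log2 fold change -0.55, edgeR adjusted p = 0.0483), a call lost without 11 of the 15 single libraries. Txnrd1, the cytosolic thioredoxin reductase and another classical NRF2 target, was chosen after its values were seen and was level, at -0.01 in KO against WT. Against C247S KI the peroxiredoxin genes Prdx6 (0.55, adjusted p = 0.0132) and Prdx5 (0.52, adjusted p = 0.0343) were higher in KO.

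Around haem and glutathione no gene passed in KO against WT with edgeR, of 11 and 12 tested (1 lower and 1 higher, and 2 lower and 0 higher, at an unadjusted p below 0.05; DESeq2 called 1 lower and 1 higher, and 0; limma-voom 0 and 0). In KO against C247S KI the haem and iron list had 1 higher and 2 lower. Blvrb, a biliverdin reductase acting after haem oxygenase, was higher in KO (83.7 ± 15.95 against 57.4 ± 6.07 CPM, SD, n = 5 each; log2 fold change 0.54, edgeR adjusted p = 0.0193), opposite in direction to Hmox1 in this comparison. In WT Blvrb was at 80.9 ± 12.35 CPM, near KO (0.05 in KO against WT, edgeR adjusted p = 0.864). All C247S KI libraries lay below those of WT for this gene. Hpx and Hp, plasma proteins that carry haem and haemoglobin, were lower in KO than in C247S KI (-1.65 and -1.38, adjusted p = 0.0271 and 0.0365). The highest C247S KI library of each gene (25430 and 22620 CPM) stood far above the C247S KI medians of 4887 and 4477 CPM. The WT medians were 4998 and 4888 CPM. Both calls were lost with limma-voom, with only the 2 groups in the fit and without any 1 of the 5 KO libraries (adjusted p up to 0.0819 in the last). The summed level of 4 red blood cell genes overlapped between the groups, at 812 to 2385 CPM in KO, 379 to 1192 in WT and 483 to 2055 in C247S KI (0 of 4 past the threshold, all 4 present), and its part in these values was not tested. Gpx1, a glutathione peroxidase, was higher in KO than in C247S KI (0.62, adjusted p = 0.0366). Its means were 1718 CPM in KO, 1739 in WT and 1119 in C247S KI, so KO was level with WT (-0.02).

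Slc7a11 is also a target of ATF4, the factor of the amino acid stress response. Of 12 ATF4 response genes 1 fell in KO against WT, Atf3, a stress-induced factor (2.02 ± 1.25 against 12.8 ± 10.4 CPM, SD, n = 5 each; log2 fold change -2.67, edgeR adjusted p = 0.0206), a call lost without WT 2, KO 3 or KO 4. Against C247S KI Trib3, a pseudokinase induced by stress, rose by 1.64 (adjusted p = 0.00275) and the hormone gene Fgf21 changed by -1.71 (adjusted p = 0.0131).

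**Figure D5:**
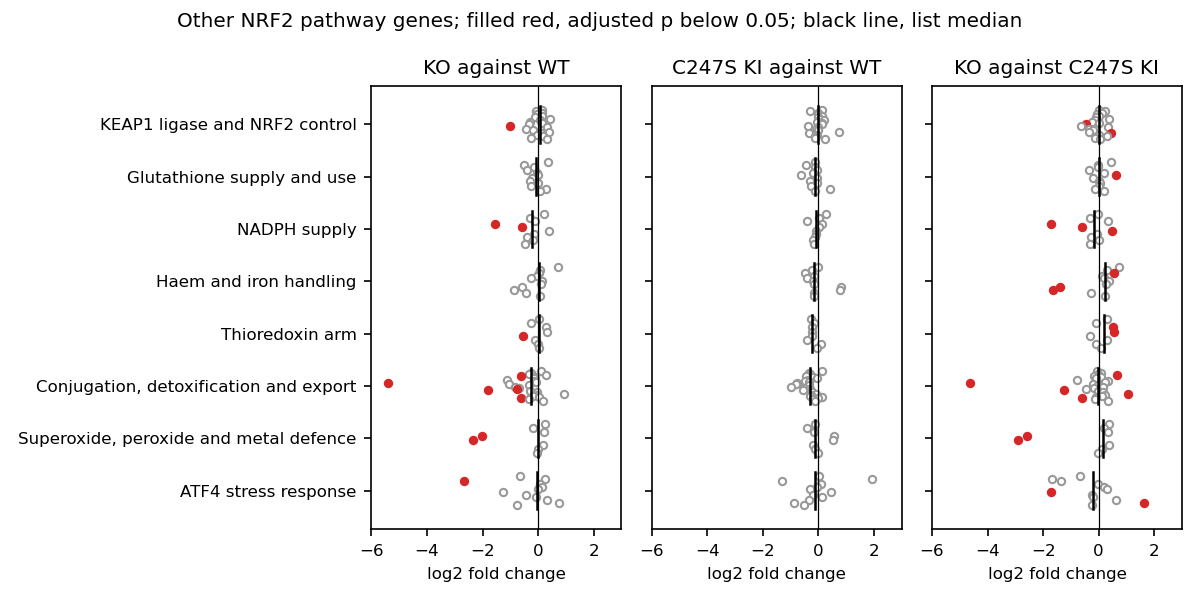
Log2 fold change of the 108 tested genes of the 8 lists in the 3 comparisons, filled red where the adjusted p was below 0.05. A black line marks each list median. All 12 red points of KO against WT lie below 0, C247S KI against WT has no red point, and KO against C247S KI has 9 above and 11 below 0.

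Calls among the listed genes differed in how many libraries they needed. Maff, Gsta1, Gstm3, Mt1 and Mt2 were the 5 of 12 that kept their call against WT without each single library, and 8 of 20 did against C247S KI, namely Me1, Prdx6, Gsta1, Akr7a5, Mt1, Mt2, Trib3 and Fgf21. The other 7 were each lost without 2 to 11 of the single libraries (edgeR adjusted p up to 0.124) and the other 12 without 3 to 13 (up to 0.163), and each of the 5 KO libraries ended at least 1 call in both comparisons. With the clock index 5 of the 12 kept theirs against WT (Maff, Pgd, Me1, Gsta1 and Atf3) and 0 of the 20 against C247S KI. Maff lost its call against WT with the most abundant transcript only (edgeR adjusted p = 0.214). Gsta1 lost both of its calls with limma-voom (adjusted p = 0.057 against WT and 0.117 against C247S KI).

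For Nfe2l2 and for the called genes Hmox1 and Nqo1, the genes with the most similar levels over the 15 libraries were looked up. By Pearson's r of log2 CPM among 13088 candidates, Srrm4 (0.92), Slc39a14 (0.91) and Tacc2 (0.89) were nearest to Hmox1, and after the group means were removed their r was 0.78, 0.68 and 0.62. Taf9 (0.87), Pdcl3 (0.87) and Cmpk1 (0.86) were nearest to Nqo1, with 0.83, 0.73 and 0.71 after removal. For Nfe2l2 they were Mmp12 (0.90), Sos2 (0.88) and Ralgds (0.88), with 0.88, 0.90 and 0.87. Each value is the top of a long ranking over libraries that share their groups, so it is a description and carries no p.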

How the data were processed

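Bulk liver RNA of 15 libraries was analysed from the authors' deposited table of estimated counts per transcript, held as whole numbers. Trimmomatic 0.39, kallisto 0.50.1, DESeq2 and the mm10 build are named in the submitters' processing notes; which transcript set served as index is not stated there. kallisto divides reads that match several transcripts, so near-identical genes are uncertain. Transcripts were matched by identifier without version to GENCODE M21 (GRCm38; 114331 of 115911) and summed per symbol; 0.366% to 0.459% of counts were unmatched and left out.

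The test was edgeR 4.0.16 (R 4.3.3) on all 15 libraries: filterByExpr (minimum count 10, total 15), TMM factors, a group-means design, glmQLFit and glmQLFTest, Benjamini-Hochberg over 13916 genes, threshold 0.05. Library sizes were scaled by the TMM factors for CPM; 2 was the prior count for log2 CPM. The standard error was the log2 fold change over the root of F, and 95% intervals used the total degrees of freedom. Totals of 18047577 to 23379940 counts leave counting error small for all but Nqo1, G6pdx and Slc7a11. The procedure was tested on simulated counts. Same-group libraries differed beyond counting noise (30 pairs, chi-square over its degrees of freedom from 23 to 372).

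The 9 genes, the lists, the clock index and the alternatives were chosen with earlier results of these data known. The text names the 9 genes, Txnip, up to 3 genes with the lowest p past the threshold per list and comparison, and the 3 genes most like Nfe2l2 and each called gene (predicted gene models left out), and states where another was picked after its values were seen. Alternatives were DESeq2 1.42.0, limma-voom 3.58.1, RLE and upper-quartile factors, 2 other count filters, only the 2 groups compared, a replicate block, the clock index, the most abundant transcript, and libraries left out. Figures used Python 3.11.15 with matplotlib 3.10.9.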

Additional observations from a re-analysis of the deposited data

Results flagged for a closer look

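Hmox1 in C247S KI 4, at 44.6 CPM, stood apart from the other 4 C247S KI libraries, which lay between 17.1 and 25.03 CPM; the gap to the next library took 0.712 of the range of the group, above Dixon's 95% critical value of 0.71 for 5 samples. It was the only 1 of 27 groups of 5 (9 genes in 3 groups) that did, and chance flags about 1 in 20 such groups. The same library had the lowest clock index (1.68) and the highest Osgin1 (111 CPM).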

How the results depend on the processing

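Over 26 alternatives, 649 of 699 log2 fold changes of the 9 genes kept their direction and their side of the threshold, 22 lost a call, 3 gained 1 and 25 changed sign, all of these for genes that had not passed. In KO against WT the count of 2 genes became 1 with no count filter, 1 with the replicate block, 0 with the clock index and 0 with the most abundant transcript only; it ranged from 0 to 2 without a single library. It was 3, with Gclc added, with WT 1, C247S KI 3 and C247S KI 5 left out, and with only the 2 groups compared it was still 2 but held Hmox1 and Gclc. In KO against C247S KI the count of 1 became 0 with the clock index and ranged from 1 to 2 without a single library. In C247S KI against WT it stayed at 0 in all 26. With WT 1, C247S KI 3 and C247S KI 5 left out, Gclm was at 0.028 in KO against WT, 0.057 in C247S KI against WT and -0.029 in KO against C247S KI, and Slc7a11 at -0.411 in C247S KI against WT. With the clock index, Osgin1 was at 0.673 in KO against WT and 0.566 in KO against C247S KI, and Nfe2l2 at 0.049 in C247S KI against WT. With the most abundant transcript only, Nfe2l2 was at 0.009 and Slc7a11 at -0.116 in C247S KI against WT, and with a mean count of at least 50 Keap1 was at -0.001 in KO against C247S KI and Slc7a11 was not tested. Without a single library the ranges were -0.11 to 0.034 for Gclm and -0.319 to 0.207 for Osgin1 in KO against WT; -0.2 to 0.095 for Nfe2l2, -0.061 to 0.123 for G6pdx, -0.279 to 0.031 for Gclc and -0.074 to 0.22 for Slc7a11 in C247S KI against WT; and -0.017 to 0.067 for Keap1 in KO against C247S KI. The causes were not tested.

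Replicate numbers are shared between groups, and nothing says that a number marks a shared litter or day. Deviations of same-numbered libraries correlated at -0.141 to 0.381 (median 0.068 over 15 pairs), and 5 of 15 libraries correlated best with their own number. With the replicate block Nqo1 was at -0.769 in KO against WT (edgeR adjusted p = 0.0535), 9 of 12 pathway calls against WT and 17 of 20 against C247S KI passed, and the count over all genes in KO against WT moved from 939 to 1046. In C247S KI against WT the count over all genes was 12, and 65 with DESeq2, 4 without WT 3, 5 without WT 4, 6 with the replicate block or only the 2 groups, and 24 without C247S KI 4. It was also 25 with the clock index, 20 with no count filter and 7 without C247S KI 1. In KO against WT the 939 became 325 with the clock index, 479 with the most abundant transcript only, 1493 with DESeq2, 1542 without WT 1, C247S KI 3 and C247S KI 5, and 521 to 1259 without a single library. In KO against C247S KI 1427 became 232, 879, 1898, 1699 and 784 to 2272 in the same order. Depth limits Slc7a11, at 10 to 36 counts a library, Nqo1, at 38 to 144, and G6pdx, at 67 to 217.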
